A study of Zea mays with 14 samples.

Results

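Polysomal RNA of maize (Zea mays) embryonic axes that had been given insulin was compared with polysomal RNA of axes that had not. The comparison takes 6 of the 14 arrays of the study, which are 6 of its 11 biological samples, chosen by their labelled fraction and treatment: 3 libraries with insulin (insulin 1, 2 and 3) and 3 without (no insulin 1, 2 and 3). In both groups, axes were dissected from seeds that had imbibed water for 22 h and were then kept for 2 h in Murashige and Skoog medium, and only the insulin group had bovine insulin in it, at 200 µU/mL. Each library came from 2 g of axes, whose polysomes were pelleted through a sucrose cushion, and 4 µg of RNA was labelled with biotin and hybridised to an Affymetrix maize array. The other arrays hold total RNA of quiescent axes, of axes germinated for 24 h, and of insulin-treated axes. The labels name neither the maize genotype nor whether replicates were separate seed lots or days, and p-values therefore cover the spread among these libraries, which may be technical.

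A polysome is an mRNA carrying several ribosomes at the same time, so the polysomal fraction is taken as the mRNA in translation. In animals, insulin acts through the kinase TOR (target of rapamycin) and S6 kinase, which phosphorylates ribosomal protein S6, and TOR activity favours the translation of mRNAs for ribosomal proteins and elongation factors. Plants carry TOR, S6 kinase and S6 as well, and the embryonic axis is the seedling in the seed, with the young root at its lower end and the young shoot at its upper end. An array value is relative to the rest of the RNA on that array: a change common to most polysomal mRNAs would not show, and fewer cells of a type cannot be told apart from less RNA per cell. Differences below are insulin minus no insulin in log2 units, where 1 is a 2-fold change.

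The libraries did not group by insulin. Across 17555 probe sets, each library was most like a library of the other group: no insulin 1 and insulin 2 (called pair A here) correlated at r = 0.997, no insulin 2 and insulin 1 (pair B) at r = 0.996, and no insulin 3 and insulin 3 (pair C) at r = 0.994. Libraries of the same group correlated at 0.983 to 0.990. Within pairs A, B and C, 83, 89 and 179 probe sets differed by more than 2-fold, against 318 to 828 for every other combination of these libraries. In sums of squares over all probe sets, the pairs held 76.0% of the variance, insulin 10.4% and the rest 13.6%. These pairs were chosen for their likeness, so their share is a description.

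**Figure D1:**
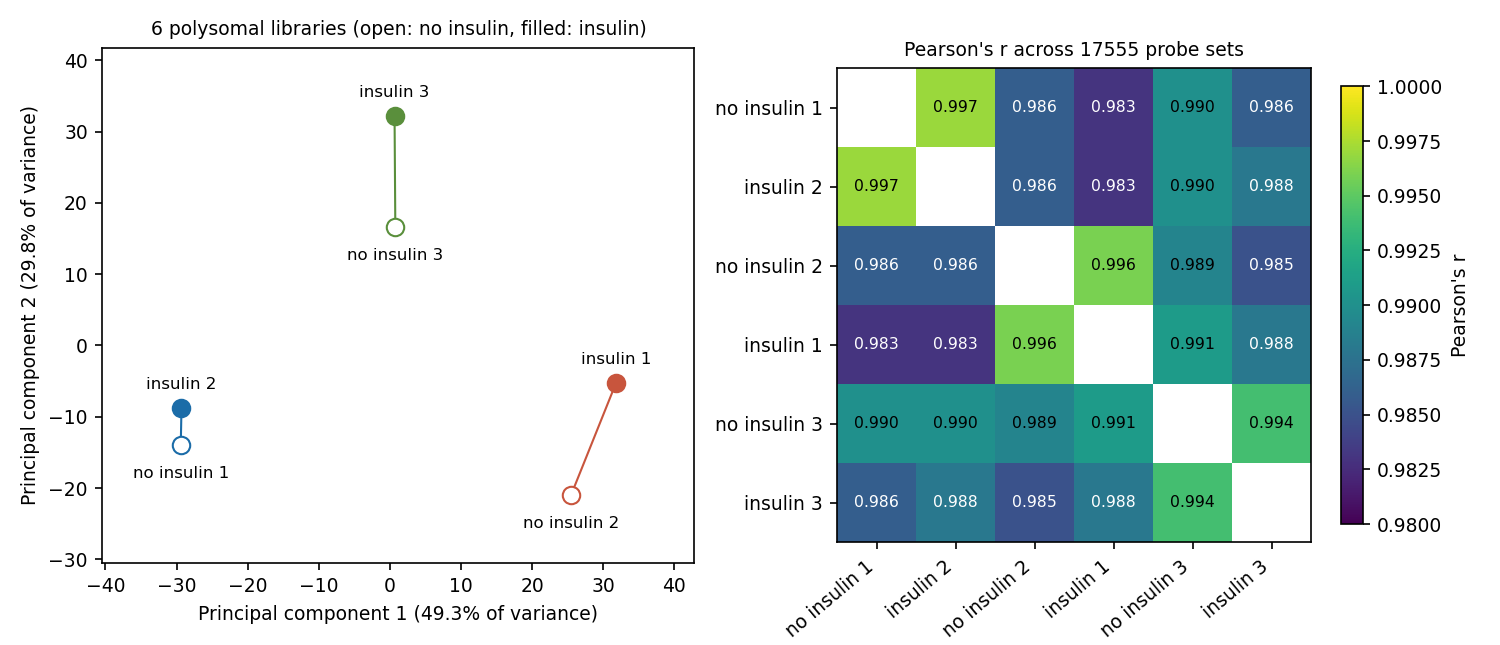
Left, the 6 polysomal libraries on the first 2 principal components of 17555 probe sets (axes in component scores; open points no insulin, filled points insulin; lines join resembling libraries). Right, Pearson's r between libraries, from 0.983 (dark) to 0.997 (light); the members of each pair lie together, and the first component, with 49.3% of the variance, separates pair A from pair B, not the insulin groups.

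Some array quality values also ran with the pairs, and others did not. Poly-A spike-ins, which go into the sample with the RNA to be labelled, had medians of 10.84 and 10.79 in pair A, 9.54 and 9.57 in pair B, and 8.45 and 7.37 in pair C (no insulin first). The difference between 3′ and 5′ signal of EF1a was 1.13 and 1.26, 2.37 and 2.07, and 0.69 and 0.79 in the same order. The hybridisation controls had medians of 8.98 to 9.96 in 5 libraries and 3.97 in insulin 2, under the highest negative control of that array (4.91). Their part in the results was not tested.

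No mRNA passed the test for a difference between axes with and without insulin. Of 17555 probe sets, 0 (0%) had a Benjamini-Hochberg adjusted p under 0.05 in limma. An unadjusted p under 0.05 was found for 177 (1.01%), of which 112 were higher and 65 lower with insulin, while an even spread of p-values would give 5%. Leaving out insulin 1, 2 or 3 changed that count to 391, 400 and 72, and each time 0 passed the adjusted threshold. With the resembling pairs as blocks, again 0 passed, with a smallest adjusted p of 0.511 in limma. Here 1414 (8.05%) had an unadjusted p under 0.05, 786 higher and 628 lower. The pairs were taken from earlier results of these data, so these p-values are not those of a design that had set the pairs. All insulin libraries lay above all others for 267 probe sets (1.52%) and below them for 432 (2.46%). The value was higher with insulin in all 3 pairs for 2355 (13.4%) and lower in all 3 for 2622 (14.9%).

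**Figure D2:**
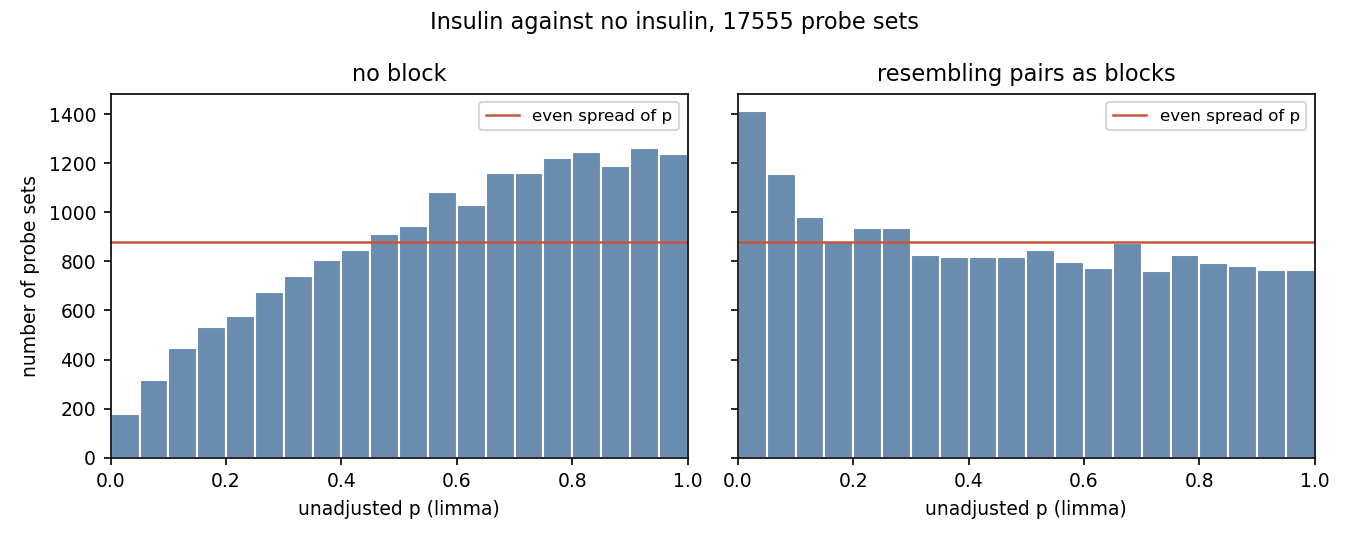
Histograms of the unadjusted limma p-value of 17555 probe sets, in bins of 0.05, without a block (left) and with resembling pairs as blocks (right); the line marks an even spread. Without the block the lowest bin holds 177 probe sets, and with it 1414.

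The differences were small where they could be measured. Above background in all 6 libraries, meaning over the 95th percentile of each library's 23 negative control probe sets, were 13706 probe sets (78.1%). Of these, 98.5% differed by less than 0.5 between the group means, 13 differed by more than 2-fold (9 higher and 4 lower), and none of the differences exceeded 1.28 in size. A 2-fold difference, up or down, lay outside the 95% confidence interval for 12706 of them (92.7%) without a block and for 13565 (99.0%) with the pairs. For a 1.5-fold change the counts were 8804 (64.2%) and 12786 (93.3%). The median standard error was 0.16 without a block and 0.10 with the pairs. As the pairs were chosen for their likeness, the intervals with the pairs may be too narrow, here and below.

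The mRNAs of cytosolic ribosomal proteins, which build the ribosome, differed little between axes with and without insulin. Gene names were available for 8.27% of the probe sets, and 28 probe sets of 19 ribosomal protein genes were among them, all above background. Their median difference was −0.02, between −0.36 and +0.12, against a median of 0.00 over all probe sets above background. None was called in either fit, and for all 28 the interval excluded a 2-fold change in both fits. It excluded a 1.5-fold change for 24 without a block and for all 28 with the pairs (100%, against 93.3% of all). An unadjusted p under 0.05 was found for 1 without the block and 2 with it, where all probe sets above background gave 0.832% and 8.35%. The 23 probe sets with a mean level over 10 differed by −0.15 to +0.12.

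The mRNA of S6, the substrate of S6 kinase, was read by 4 probe sets of rps6-1 and 1 of rps6-2. The brightest of rps6-1 stood at 12.61, 12.47 and 12.45 in no insulin 1, 2 and 3, and at 12.51, 12.60 and 12.51 in insulin 1, 2 and 3, a difference of +0.03 (SE 0.11; limma, unadjusted p = 0.791). The rps6-2 probe set stood at 12.67, 12.59 and 12.56 without and 12.45, 12.70 and 12.54 with insulin, a difference of −0.04 (SE 0.12). In both, the groups overlapped; for rps6-1 the insulin values lay within the range of the others, and for rps6-2 they reached beyond it at both ends. The large subunit protein RPL10 stood at 13.62, 13.57 and 13.69 against 13.57, 13.67 and 13.70, a difference of +0.02 (SE 0.11) in its brighter probe set. Its other probe set gave +0.03 (SE 0.10).

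A few ribosomal protein probe sets lay slightly lower with insulin, none past the test. For rpl30, of the large subunit, the values were 11.70, 11.67 and 11.56 without insulin and 11.50, 11.53 and 11.47 with it, a difference of −0.14 (SE 0.11). The groups did not overlap, as for 2 of the 28 probe sets on the lower side and 0 on the higher; over all probe sets above background these shares were 1.61% and 1.35%. The value was lower in all 3 pairs for 5 of the 28 (17.9%) and higher in all 3 for 0, against 13.1% and 14.9% of all. Dim probe sets of rpp3, RP-P0 and rpp1a were among these 5, at −0.30, −0.18 and −0.36. The brightest probe sets of the same genes differed by −0.04, +0.03 and −0.06. Besides rpl30, the probe set without overlap was the dim one of rpp3.

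Translation factors had a median difference of 0.00 over 26 probe sets of 13 genes, from −0.49 to +0.31, with no call in either fit. The interval excluded a 2-fold change for 22 of the 26 without a block and for all 26 with the pairs. It excluded a 1.5-fold change for 20 without a block and for 22 with the pairs (84.6%, against 93.3% of all). An unadjusted p under 0.05 was found for 0 of the 26 without a block and for 4 with the pairs. Over all probe sets above background these shares were 0.832% and 8.35%. Dim probe sets of elfa2 and elfa3 are 3 of the 4, and they lay lower with insulin. Initiation factor 4A, the helicase that opens the mRNA leader, differed by +0.10 (SE 0.11) in the brighter probe set of tif-4A3, at 12.47, 12.48 and 12.38 without and 12.62, 12.56 and 12.46 with insulin, with overlapping groups. The cap-binding factor eIF4E1 stood at 11.69, 11.47 and 11.43 without insulin. With it the values were 11.20, 11.72 and 11.53, a difference of −0.04 (SE 0.16). EIF5, which acts when the start codon is recognised, had the largest positive difference of the list, +0.31 (SE 0.30): 10.13, 9.31 and 10.35 against 9.92, 10.23 and 10.58, with overlap and +0.10, +0.61 and +0.23 in pairs A, B and C. Its unadjusted p was 0.328 without the block and 0.0327 with the pairs in limma.

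Of the signalling genes, TOR itself stood higher in every insulin library, without passing the test over all probe sets. Its only named probe set read 7.25, 7.34 and 7.52 in no insulin 1, 2 and 3 and 7.75, 7.65 and 8.03 in insulin 1, 2 and 3. The lowest insulin value exceeded the highest of the others, and the differences in pairs A, B and C were +0.40, +0.41 and +0.51. The group means were 7.37 ± 0.14 and 7.81 ± 0.20 (SD, n = 3 each), a difference of +0.44 (95% interval 0.09 to 0.78), with an unadjusted p = 0.0195 and an adjusted p = 1 in limma. With the pairs the interval was 0.23 to 0.65, with an unadjusted p = 0.00158 and an adjusted p = 0.511 in limma. Leaving out a library moved the difference between +0.33 and +0.52. In total RNA, TOR read 7.74 and 7.97 in the 24 h samples M4 and RB and 7.53 in the insulin-treated sample, which is 1 sample and gives no test.

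S6 kinase (S6K) read 6.66, 6.39 and 6.68 without and 6.66, 6.65 and 6.70 with insulin, a difference of +0.10 (SE 0.12; limma, unadjusted p = 0.465). The groups overlapped, and the low value of no insulin 2 set most of the difference, with −0.01, +0.27 and +0.02 in pairs A, B and C. TCTP, the translationally controlled tumour protein, a growth-related protein whose mRNA is very abundant in growing cells, was read by 5 probe sets, 4 of them above background. The brightest stood at 13.47, 13.36 and 13.34 without and 13.38, 13.33 and 13.34 with insulin, a difference of −0.04 (SE 0.10). A dimmer TCTP probe set differed by −0.61 (SE 0.26), at 8.50, 8.14 and 8.11 against 8.11, 7.68 and 7.10, with −0.81, −0.03 and −1.0 in pairs A, B and C, and was not called.

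**Figure D3:**
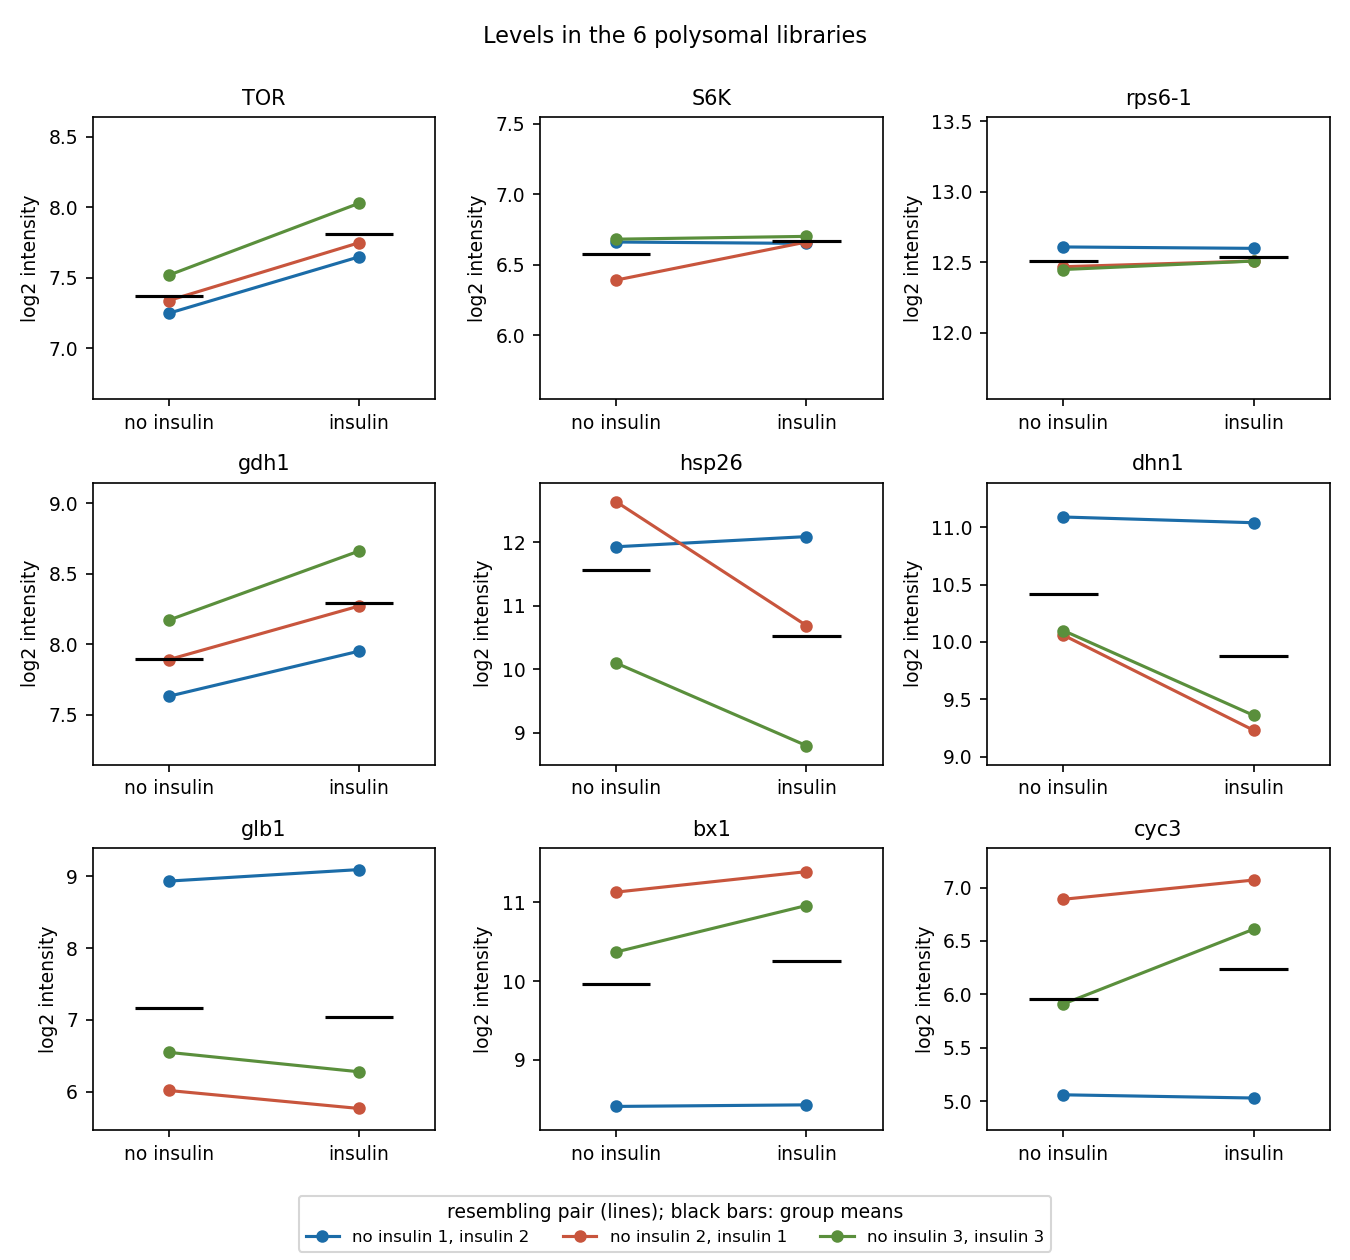
Log2 intensity of the brightest named probe set of 9 genes without and with insulin; each line joins a resembling pair, and black bars are group means of 3 libraries (vertical scales differ, each spanning at least 2 units). TOR and gdh1 are higher with insulin along each line by 0.32 to 0.51 without passing the test, rps6-1 differs by at most 0.05 along each line, and for glb1, bx1 and cyc3 the pairs lie farther apart than the groups.

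Genes of cell growth and division, which come into use as the axis elongates, showed no call either. Histones, the proteins of chromatin, had a median difference of +0.04 over 9 probe sets above background, from −0.09 to +0.22. Tubulins, the subunits of microtubules, had a median of +0.02 over 20 probe sets, from −0.22 to +0.32; tub2 was the probe set whose groups did not overlap, at 10.17, 10.20 and 10.17 without and 10.07, 10.07 and 9.93 with insulin (−0.16, SE 0.11). Cyclins, PCNA and MCM proteins, which drive the cell cycle and DNA replication, had a median of −0.08 over 10 probe sets, from −0.23 to +0.28. For the sliding clamp gene pcna1 the values were 10.37, 10.64 and 10.54 against 10.29, 10.39 and 10.19, a difference of −0.23 (SE 0.12). The other clamp gene, pcna2, gave −0.20 (SE 0.13), and the helicase subunit MCM7 −0.20 (SE 0.20). For pcna1 and pcna2 the differences were near 0 in pair A (+0.02 and −0.02) and between −0.35 and −0.23 in pairs B and C.

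Heat shock proteins, chaperones that keep other proteins folded, had the lowest median of the 9 lists, −0.27 over 15 probe sets above background, from −1.03 to +0.10, and none was called. The median was +0.02 in pair A, −0.60 in pair B and −0.33 in pair C, and −0.62 without insulin 2. Leaving out insulin 2 alone keeps no insulin 1, the other library of pair A, so that last value is not balanced over the pairs. An unadjusted p under 0.05 was found for 0 of the 15 without a block and for 8 with the pairs, against 8.35% of all probe sets above background in the latter. The value was lower in all 3 pairs for 4 of the 15 (26.7%, against 13.1% of all) and higher in all 3 for 0.

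The low members were the small heat shock proteins and the disaggregase hsp101, while the differences of the HSP70 and HSP60 chaperones were smaller, between −0.27 and +0.10; this split was seen after the values were known. For hsp26 the values were 11.93, 12.64 and 10.10 without insulin and 10.69, 12.09 and 8.80 with it, a difference of −1.03 (95% interval −3.23 to 1.17; limma, unadjusted p = 0.303). The groups overlapped, since both libraries of pair A were high (+0.16) while pairs B and C differed by −1.95 and −1.30. With the pairs the unadjusted p was 0.0158 and the adjusted p 0.525. For hsp101 the pairs differed by +0.07, −1.63 and −0.73, and for hsp22 by +0.02, −1.04 and −0.70. The 3 probe sets of hsp70-5 differed by −0.08, +0.02 and +0.04 and hsp70-4 by +0.10 between the group means. The HSP70 proteins of the endoplasmic reticulum, bip1 and bip2, differed by −0.24 and −0.27, and the HSP60 chaperonins CPNA and CPNB by −0.24 and −0.01. Of these, bip2 was lower in all 3 pairs (−0.02, −0.45 and −0.33; limma, paired unadjusted p = 0.044). In pair A the small heat shock proteins and hsp101 differed by −0.13 to +0.16, except for a dim probe set of hsp18c at −0.76. The HSP70 and HSP60 chaperones differed there by −0.14 (hsp70-4) to +0.25 (CPNB). Pair A holds the array with the dim hybridisation controls (insulin 2), and in pair C the spike-in median also differed, at 8.45 without and 7.37 with insulin; whether these bear on the heat shock values was not tested.

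Late embryogenesis abundant proteins, a family with members that protect the dry seed, had a median difference of −0.15 over 6 probe sets, from −0.54 to +0.01, none called. With the pairs, 2 of the 6 had an unadjusted p under 0.05 in limma, dhn1 (0.00936) and EMB5 (0.0269). Over all probe sets above background that share was 8.35%. The dehydrin dhn1 (RAB17) read 11.09, 10.06 and 10.10 against 9.23, 11.04 and 9.36, with −0.05, −0.83 and −0.74 in pairs A, B and C. Its groups overlapped through insulin 2, which stood near no insulin 1 as in the heat shock genes. EMB5, of the same family, read 10.60, 9.33 and 9.47 against 9.13, 10.43 and 8.96, a difference of −0.29 (SE 0.48). The dehydrin dhn2 is not a dry-seed mRNA here. In total RNA its brightest probe set read 9.09 and 9.81 in quiescent axes and 12.67 and 12.60 in M4 and RB. For dhn1 these values were 14.09 and 14.09, and 10.42 and 12.50.

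Markers of endosperm, aleurone and scutellum, tissues that a dissected axis could carry along, were also looked at. Of 23 probe sets of 17 genes, 14 were not above background in all 6 libraries, among them all probe sets of the alpha and delta zeins, the storage proteins of the endosperm. The gamma zein gz27 was above background in 2 of its 3 probe sets, the brighter at 8.20, 8.17 and 8.31 without and 7.65, 8.19 and 8.12 with insulin. The 9 probe sets above background had a median difference of −0.12, from −0.38 to +0.04, and none was called. The value was lower in all 3 pairs for 5 of the 9 (55.6%, against 13.1% of all). With the pairs, 2 of the 9 had an unadjusted p under 0.05 in limma, against 8.35% of all probe sets above background. Both gz27 probe sets are among the 5 that were lower in all 3 pairs. The brighter of them in pair A, and wx1 (granule-bound starch synthase) in pair B, differed by 0 after rounding, so the count rests partly on very small differences. For glb2, globulin-2, the values were 8.82, 7.40 and 7.49 against 6.85, 8.54 and 7.18, with −0.28, −0.55 and −0.31 in pairs A, B and C (limma, paired unadjusted p = 0.0059). Levels of embryo storage products followed the pairs: globulin-1 (glb1) read 8.93 and 9.09 in pair A, 6.02 and 5.77 in pair B, and 6.55 and 6.28 in pair C, and the oil-body protein ole1 read 12.24 and 12.17, 10.91 and 10.66, and 11.00 and 10.89. Pair A was the highest for both genes in both insulin states. Total RNA of quiescent axes read 13.82 and 13.80 for glb1 and 14.01 and 13.94 for ole1. Whether these genes read the axis itself or tissue carried along was not tested.

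**Figure D4:**
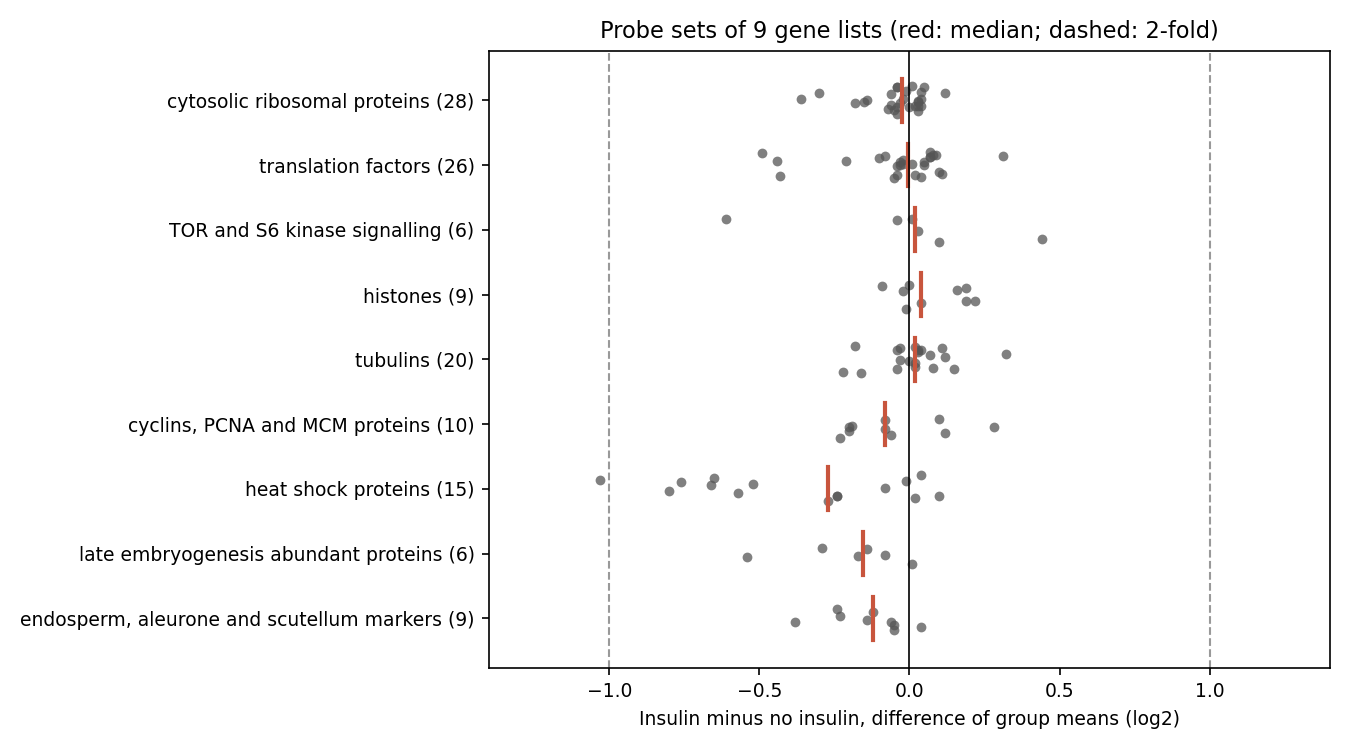
Insulin minus no insulin (difference of group means, log2) for the probe sets above background of 9 gene lists, with the number of probe sets in brackets; each point is a probe set and red bars are medians. All medians lie between −0.27 (heat shock proteins) and +0.04 (histones), and 1 point, hsp26, passes the dashed 2-fold line.

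By the rule for naming probe sets, those with the smallest p in each direction were taken, called or not. Without a block, the smallest p on the higher side belonged to a probe set at 6.20, 6.15 and 6.22 without and 7.06, 6.59 and 6.64 with insulin, a difference of +0.57 (SE 0.15; limma, unadjusted p = 0.0071, adjusted p = 1). Its groups did not overlap, with +0.39, +0.91 and +0.42 in pairs A, B and C. The next differed by +0.88 (SE 0.24), at 4.46, 5.28 and 4.70 against 5.45, 5.97 and 5.66. On the lower side, the first probe set read 7.48, 7.15 and 7.29 against 6.85, 6.86 and 6.81, a difference of −0.46 (SE 0.12). No gene name was available for these 3. The next on the lower side was a probe set of PLTP, a phospholipid transfer protein, at 6.76, 6.55 and 6.70 against 6.27, 6.29 and 5.93 (−0.51, SE 0.14; unadjusted p = 0.00899, adjusted p = 1 in limma).

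With the pairs as blocks, the smallest p on the higher side belonged to an unnamed probe set at 5.84, 5.02 and 5.73 without and 5.73, 6.79 and 7.04 with insulin. Its groups overlapped, but the insulin library was the higher in each pair, by +0.95, +0.72 and +1.31, giving +0.99 (SE 0.13 with the pairs, 0.37 without; unadjusted p = 6.85e-05 and adjusted p = 0.511 in limma with the pairs). The next differed by +0.76 (SE 0.11 with the pairs). On the lower side stood a probe set of phb1, prohibitin, a scaffold protein of the inner mitochondrial membrane, at 8.06, 7.69 and 7.18 against 7.12, 7.41 and 6.33. It differed by −0.64, −0.57 and −0.85 in pairs A, B and C (−0.69, SE 0.10; limma, unadjusted p = 0.000166, adjusted p = 0.511). The next, without a gene name, gave −0.51 (SE 0.09). The largest difference on the higher side was +1.28 (SE 0.45), with +2.07, −0.16 and +1.93 in the pairs, and the largest on the lower side −1.04 (SE 1.22), with +0.11, −1.83 and −1.41.

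Among probe sets with a gene name, those with the smallest p in the paired fit were looked up afterwards, and none was called. On the higher side, LOC542345, for which no role is given here, read 6.59, 6.64 and 6.87 against 7.39, 6.95 and 7.81, with groups that did not overlap and +0.36, +0.75 and +0.95 in pairs A, B and C (limma, paired unadjusted p = 0.000723). MRP1 read 9.41, 8.35 and 9.29 against 8.93, 9.71 and 10.03, with overlapping groups and +0.30, +0.58 and +0.74 in the pairs. Besides these and TOR, gdh1, glutamate dehydrogenase, which links amino acid and carbon metabolism, read 7.63, 7.89 and 8.17 against 8.27, 7.95 and 8.66, with +0.32, +0.39 and +0.49 in pairs A, B and C. PNGase, which removes sugar chains from misfolded glycoproteins, gave +0.33, +0.43 and +0.52 in those pairs, and +0.29, +0.34 and +0.50 in a further probe set. Both gdh1 and PNGase had overlapping groups. For CP24 (lhcb6), a light-harvesting protein of photosystem II, 1 of 4 probe sets gave +0.59, +0.56 and +0.44, and the brightest gave −0.14, +0.04 and +0.06, so its probe sets disagreed.

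On the lower side, several of the genes were read by a dim probe set that lay lower and by a brighter one that lay near 0. The phb1 probe set above has a mean level of 7.30, and the brightest of phb1, at 11.90, differed by −0.06. For PLTP the dim probe set gave −0.51 and the brightest +0.10, for elfa3 (elongation factor 1 alpha) −0.49 and +0.01, for elfa2 −0.43 and +0.02, and for rpp1a, an acidic stalk protein of the ribosome, −0.36 and −0.06. In hsp18c both were low, at −0.65 and −0.80. The sex-determination gene ts2, with a single named probe set, differed by −0.48. Over the 39 genes with a brightest probe set over 10 and a dimmest under 9, all above background, the median difference was +0.03 in the brightest and −0.14 in the dimmest, and the dimmest was the lower in 29. What the dim probe sets bind was not tested, and these 39 genes were chosen after the values were seen. TOR, gdh1 and S6K have a single named probe set each, so no such comparison can be made for them.

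**Figure D5:**
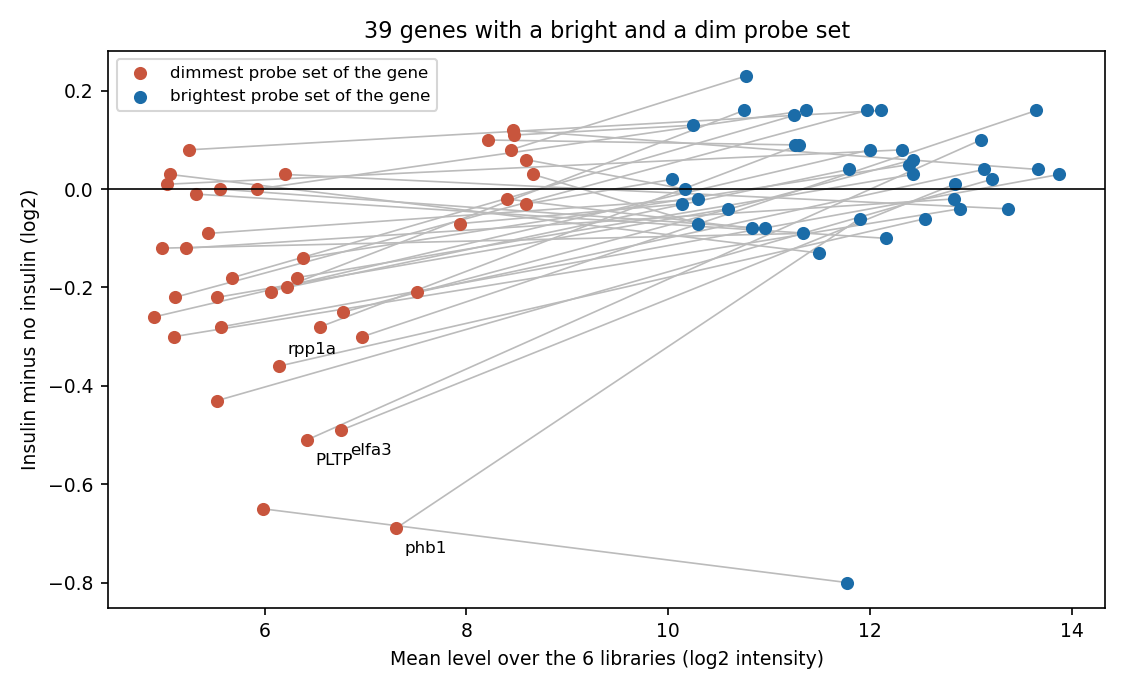
Insulin minus no insulin (log2) against mean level over the 6 libraries (log2 intensity) for the brightest (blue) and dimmest (red) probe set of 39 genes, joined by lines. The brightest lie near 0 (median +0.03) except hsp18c at −0.80, and the dimmest reach down to −0.69 for phb1.

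Some mRNAs differed widely between the pairs. The pairs were chosen for their likeness and the genes below for a wide range of pair means, so this is a description. The means of the 3 pairs spanned more than 1 unit for 812 probe sets above background (5.92%) and more than 2 for 81. The terpene synthase gene tps6 read 7.37 and 7.87 in pair A, 9.75 and 10.30 in pair B, and 6.07 and 7.42 in pair C (no insulin first). The tonoplast aquaporin TIP2-2, a water channel of the vacuole, read 5.64 and 5.99, 8.55 and 9.48, and 7.80 and 8.13. For bx1, the first enzyme of benzoxazinoid defence compounds, the values were 8.41 and 8.43, 11.13 and 11.39, and 10.37 and 10.96. In these 3 genes pair A was below pair B by over 2 units, in both insulin states. In each of them the insulin library was also the higher in every pair, and none was called. Both tps6 and TIP2-2 were among the named genes with the smallest p in the paired fit. In pairs A, B and C, tps6 differed by +0.49, +0.55 and +1.35 (limma, paired unadjusted p = 0.00173). For TIP2-2 the differences were +0.35, +0.93 and +0.33 (limma, paired unadjusted p = 0.00461).

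The cyclin gene cyc3, also picked for its wide range, read 5.06 and 5.03 in pair A, 6.89 and 7.07 in pair B, and 5.91 and 6.61 in pair C, while glb1 ran the other way. Genes of the cyclin, PCNA and MCM list did not share a direction. For cyc2, 5.57 and 5.40 in pair A lay below 6.37 and 6.20 in pair B. For MCM7, 9.27 and 9.21 in pair A lay above 9.02 and 8.53 in pair B. Before germination, glb1 read 13.82 and 13.80, cyc3 4.18 and 4.53, cyc2 5.64 and 5.94, and MCM7 5.71 and 5.97 in the quiescent samples. The transcription factor vp1, which keeps seed maturation genes on, read 8.32 and 8.72 in pair A, 6.78 and 7.36 in pair B, and 6.70 and 6.17 in pair C, and 5.32 and 5.74 in the quiescent samples, below every polysomal library. On a line through all probe sets from quiescent axes (0) to 24 h sample M4 (100), pair A lay at 99.3 and 97.5, pair B at 101 and 104, and pair C at 105 and 102. The insulin groups overlapped along that line, while RB, also germinated for 24 h, stood at 76.8.

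The absence of calls with the pairs held with all 3 pairs but not with every combination of 2. Without pair B, 198 probe sets (1.13%) were called in limma, 162 higher and 36 lower, and without pair A, 10 (0.057%), 1 higher and 9 lower; without pair C there were 0. Such a fit has 1 residual degree of freedom and leans on the spread borrowed from other probe sets. Of the 198, 81 (40.9%) had the same sign in pair B, where 52.7% of all probe sets tested did. Of the 114 above background in all 6 libraries, 55 (48.2%) had it, against 52.4% of all above background. Over the 198, the median value in pair B, counted in the direction called, was −0.08, beside a median size of 0.86 in the fit. Of the 10 called without pair A, 2 had the same sign in pair A. No probe set was shared by the 198 and the 10.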

How the data were processed

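Levels of mRNA were measured on Affymetrix maize arrays in 3 polysomal libraries with and 3 without insulin. The authors deposited 1 table of log2 values, and limma is the tool named in the submitters' processing notes, with no version; background correction, normalization between arrays and probe summary are not stated. That the values are log2 intensities was taken from their range over these 6 arrays (2.60 to 14.34, with array medians of 7.53 to 7.61 over the probe sets tested), and whether arrays were centred by the authors is unknown. The number of arrays limits the precision.

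Of 17734 probe sets, 113 AFFX and 66 RPTR controls were left out. The remaining 17555 were fitted in limma 3.58.1 (lmFit, eBayes; R 4.3.3) with insulin as the term and no block, with 4 residual and 2.95 prior degrees of freedom, and again with the 3 resembling pairs as fixed blocks, with 2 and 5.54. P-values were adjusted by Benjamini-Hochberg over all 17555, and a call was an adjusted p under 0.05. Likeness by replicate number was looked at by correlating deviations from the group means. Same-numbered libraries gave r = −0.63, −0.44 and 0.60 for numbers 1, 2 and 3. The resembling libraries, chosen for their likeness, gave 0.77, 0.70 and 0.60 for pairs A, B and C, where pair C is also number 3. Whether same-numbered samples were handled together cannot be told from these values.

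Gene names came from a probe annotation table of the year 2007, updated through RefSeq (assembly Zm-B73-REFERENCE-NAM-5.0) by gene identifier: 1452 probe sets had 1 gene, 1 had several and stayed unnamed, and the others had none listed; 1377 were found in RefSeq. No sequence was used. The rule for naming took, in each fit, the 2 probe sets above background with the smallest p of each direction, called or not, and the largest difference of each direction. The members of the comparison, the pairing and the gene lists were chosen with earlier results of these data known. Alternatives were all 5 groups in the fit, the replicate number as a block, a random block, quantile normalization, median centring, filters on dim probe sets, a 2-fold minimum, a robust prior with a trend, and leaving out each library or pair. Figures were drawn with matplotlib 3.10.9.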

Additional observations from a re-analysis of the deposited data

Results flagged for a closer look

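Signal was also seen in control probe sets, which enter no comparison. In all 6 polysomal libraries, 4 of the 66 reporter (RPTR) probe sets exceeded the brightest negative control, where the highest negative control reached 4.91. The poly-A spike-in medians lay above every negative control in all 6 libraries, the lowest of them at 7.37 in insulin 3. No group holds 4 or more libraries, so no library was tested as lying apart from its group.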

How the results depend on the processing

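Starting from the fit without a block, 0 probe sets were called in limma in any of 15 alternatives; an unadjusted p under 0.05 was found for 72 (without insulin 3) to 400 (without insulin 2) with a library left out, 57 with all 5 groups in the fit and 0 with the 2-fold minimum. Leaving out both libraries of pair A, chosen after seeing the data, also gave 0 calls. With the replicate number of the labels as a block, 0 were called and 198 had an unadjusted p under 0.05 in limma. In place of the resembling pairs, the replicate numbers held 33.7% of the variance, with 55.9% for the rest. With the resembling pairs as blocks, 0 were called in 6 alternatives, the random block among them (estimated correlation 0.64), and 0 to 198 with a pair left out (0 without pair C, 10 without A, 198 without B). Of 696 values of named or listed single probe sets, 680 kept their direction and 16 reversed, none of them called. These are the largest unnamed lower difference (−2.11 to 0.11 with a library left out), tps6 (−0.09 to 1.81), TIP2-2 (−0.31 to 1.48), and 3 TCTP probe sets near 0: the second brightest (0 with quantile normalization and −0.01 with median centring in both fits, −0.04 to 0.04 with a library and −0.04 to 0.05 with a pair left out), the brightest (−0.07 to 0 with a pair left out) and a dim one (−0.09 to 0.12 with a library and 0 to 0.04 with a pair left out). With pair B or A left out, 10 of the values passed the threshold, phb1, PLTP and tps6 among them. The cause was not tested, beyond the single residual degree of freedom of those fits. With 3 libraries a group, a difference smaller than about the interval widths given cannot be told from the spread between libraries.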

Other observations

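Probe sets whose identifiers start with ZmAffx and carry a cluster number above 1200, a limit set after the values were seen, had no gene names and stood apart from the other probe sets in size of difference. Of 258 such probe sets, 125 were above background in all 6 libraries. Their median difference was +0.27, with +0.40, −0.05 and +0.48 in pairs A, B and C, while the medians were −0.04 for 838 ZmAffx probe sets up to that number and +0.01 for 12743 Zm probe sets. All insulin libraries lay above all others for 7 of the 125 (5.60%, against 1.35% of all probe sets above background), and all 9 probe sets that were more than 2-fold higher with insulin belonged to them. None passed the adjusted threshold in limma. Without a block, the unadjusted p was under 0.05 for 13 of the 125, against 0.832% of all probe sets above background. Their medians were 5.73, 6.72 and 5.75 in no insulin 1, 2 and 3 and 6.54, 6.77 and 6.48 in insulin 1, 2 and 3, so that no insulin 2 lay with the insulin libraries. In total RNA, the same probe sets had medians of 6.60 in M4, 8.20 in RB and 6.20 in the insulin-treated sample, with a median difference of −0.34 between the insulin-treated sample and M4. What these probe sets measure was not tested.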
